A study of Mus musculus with 4 samples.

Results

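Bone marrow-derived dendritic cells that received LPS together with lactic acid were compared with cells that received LPS alone. The comparison used the LPS+LA array and the LPS array, 2 of the 4 arrays of the series. It covered every gene whose probe was well above background on at least 1 of these 2 arrays, which was 16057 of the 23462 genes with a probe. Both cultures came from femur marrow of male wild-type C57BL/6J mice, whose age the labels do not give. The marrow was grown in MEM with 10% fetal bovine serum and 10 ng/ml GM-CSF, and the cells were taken on day 6. The LPS culture then received ultrapure LPS at 100 ng/ml for 4 h, and the LPS+LA culture received the same LPS and L-(+)-LA at 20 mM for 4 h. The other arrays, shown beside them, held cells without stimulation (medium, no time given) and cells with LA alone at 20 mM for 4 h. The labels state neither the pH of the medium nor how many mice or cultures stand behind an array. The series title asks what lactate does to inflammation in dendritic cells. This comparison is of lactic acid added with LPS, and lactate and acid cannot be told apart in it.

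LPS is a component of the outer membrane of Gram-negative bacteria. It is sensed by Tlr4 with Cd14 and Ly96, and the signal runs through a MyD88 branch to NF-kB and MAP kinases and through a TRIF branch to IRF3 and interferon beta. Interferon beta released by the cells then acts back through its receptor and STAT proteins and drives a large set of antiviral genes. In dendritic cells this programme brings cytokines, chemokines and costimulatory molecules that prime T cells, together with a shift towards glycolysis in which the transcription factor HIF-1 takes part. Lactic acid is the end product of glycolysis and is abundant in many tumours. It dissociates into lactate and a proton, which are moved by monocarboxylate transporters and sensed by dedicated receptors.

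Each group was 1 array without replicates, so no difference below carries a test or an error between cultures, and precision is limited by how few arrays there were. A level is the processed signal divided by its own array's 75th percentile, on the log2 scale, and a level of 0 is a spot at that percentile. A difference is the level with LPS+LA minus the level with LPS, in log2 units, and 2-fold is 1 unit. Levels are compared between arrays for the same probe, never between genes. Between 56.5% (LPS) and 64.1% (LA) of 59305 non-control spots were well above background, with 63.6% for LPS+LA, and 0 spots were saturated. The 300 probes printed 10 times had an SD between spots of 0.050 to 0.053 where bright, an error within an array that does not cover differences between cultures. In such bulk RNA, fewer cells of a type and less RNA per cell cannot be told apart.

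The LPS+LA array lay nearest to the LA array, not to the LPS array. Among 13367 genes well above background on all 4 arrays, 1.61% were at least 2-fold apart between LA and LPS+LA, and 23.8% between LPS and LPS+LA. The corresponding shares were 15.3% between medium and LPS, 5.69% between medium and LA and 6.3% between medium and LPS+LA. Of 95 genes at least 8-fold higher with LPS than in medium, 7 were at least 2-fold higher with LPS+LA than with LA, and their median difference between those arrays was 0.10. The 7 were Cxcl10 (2.07), Il12a (1.58), Gbp4 (1.31), Rsad2 (1.27), Lag3 (1.24), Tnf (1.13) and Isg20 (1.03), listed after their values were seen. How much of the LPS reached or stimulated the cells of the LPS+LA culture was not tested.

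**Figure D1:**
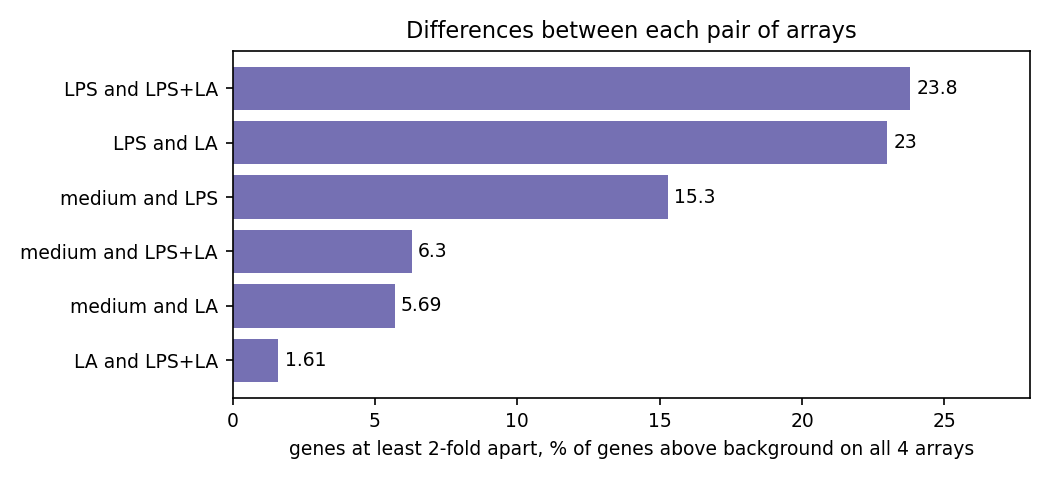
Share of genes at least 2-fold apart for each pair of arrays, in % of the 13367 genes well above background on all 4 arrays, with 1 bar per pair and 1 array per group. The smallest share (1.61%) is that of LA and LPS+LA, and the largest (23.8%) that of LPS and LPS+LA.

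With LPS+LA, 2088 of 16057 genes (13%) were at least 2-fold lower than with LPS, and 1924 (12%) were at least 2-fold higher. The lower genes were 1707 measured on both arrays and 381 for which LPS+LA gave only a bound, and the higher genes were 1559 measured and 365 by a bound. A bound was used where a probe was well above background on 1 array only, and such differences are written "at least". A bound depends on how background is treated. With normexp background correction, all 32 bounds of at least 2-fold among the 399 genes picked by the naming rules were over 1.5 times smaller. The median change of their log2 size was -1.76, and 10 were under 2-fold. An "at least" therefore holds only for the processing reported here. Over the settings, the smallest difference was -2.95 for Hamp, -3.43 for Tnfsf10, -2.49 for Adm, -1.85 for Il10 and -1.09 for Il23a. Of 293 measured differences, 108 were over 1.5 times smaller and 46 under 2-fold with normexp. Genes given below that were under 2-fold with it included Epas1 (0.81), Pdk2 (0.88), Ptgs1 (0.90), Tgfbr2 (0.95), Maff (-0.81) and Tnfsf8 (-0.75). The larger differences lay mostly on the lower side. At least 4-fold, 649 genes were lower and 284 higher, and at least 8-fold, 241 were lower and 38 higher. Of the 241, 227 had been at least 2-fold higher with LPS than in medium, and of the 38, 29 had been at least 2-fold lower, in a comparison that shares the LPS array. The median over all genes was 0.01, with quartiles of -0.46 and 0.52. Of the genes 2-fold apart, 52.0% were lower, a split that depended on the scaling. It was 63.2% with normexp background correction, 39.6% when the 75th percentile was taken over probes bright on all arrays and 23.5% with the authors' table, in which the median of all genes lay at 0.43. Within 0.1 of the 2-fold threshold on either side lay 211 measured lower genes just inside and 217 just outside, and 279 higher genes just inside and 316 just outside. Of 1126 genes past 2-fold with several measured probes, 1011 (89.8%) had all probes on the same side of 0. Of 5 bins of measured genes by level, the brightest had a median of -0.21 and the others medians from -0.03 to 0.15. The 32 housekeeping genes had a median of -0.49 and the 46 cytosolic ribosomal protein genes one of -0.69 (-0.18 and -0.17 after quantile normalization).

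The list of the IL-12 family and other cytokines by which dendritic cells polarise T cells stood near or below the unstimulated level on the LPS+LA array. Of 8 members, 7 were at least 2-fold lower with LPS+LA than with LPS and 0 higher, with a median of -3.14 against 0.01 over all genes. Il12b, which encodes the p40 subunit shared by IL-12 and IL-23, lay at 0.44 in medium, 6.29 with LPS, -0.57 with LA alone and -0.85 with LPS+LA. Only the LPS array was high, and the difference of -7.15 was 142-fold. For Il12a, the p35 subunit of IL-12, the levels were -2.07 in medium, 2.19 with LPS, -2.96 with LA alone and -1.38 with LPS+LA, an 11.8-fold difference from LPS. Its LPS+LA value was the second highest of the 4 and lay 1.58 above LA. Il23a, the p19 subunit of IL-23, was well above background with LPS alone (-1.01) and was at least 8.52-fold lower with LPS+LA. Il27, the p28 subunit of IL-27, lay at 3.32 with LPS against 0.95 with LPS+LA and 0.76 in medium (5.16-fold lower). Il15, a growth factor of natural killer and memory T cells, was 9.09-fold lower than with LPS, and Tnfsf15, the TNF-family ligand TL1A, at least 198-fold (a difference of -4.83 with normexp).

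Of 26 inflammatory cytokine genes listed, 22 were above background, 17 of them at least 2-fold lower, 0 higher and 5 neither, with a median of -2.23 that ran from -3.17 to -0.88 over the processing settings. Tnf, the early cytokine of the LPS response, lay at 1.91 in medium, 6.73 with LPS, 0.31 with LA alone and 1.44 with LPS+LA. It was 39.0-fold lower with LPS+LA than with LPS and 1.13 above LA alone. Il6, the pleiotropic cytokine of the acute phase, lay at -1.63, 4.68, -2.68 and -2.10 in the same order of arrays and was 110-fold lower. Both genes were thus high with LPS and back near or below medium with LPS+LA. The interleukin-1 genes differed in size. Il1a was at 3.52 with LPS and not well above background with LPS+LA, at least 196-fold lower, whereas Il1b lay at 2.02 in medium, 6.19 with LPS, 2.26 with LA alone and 2.54 with LPS+LA, 12.6-fold lower than with LPS and 1.43-fold above medium. Lta, lymphotoxin alpha, was at least 112-fold lower, and Tnfsf9, the ligand of the costimulatory receptor 4-1BB, was 39.1-fold lower. Osm, oncostatin M, went the other way below the threshold, at 1.44 in medium, 2.35 with LPS, 3.28 with LA alone and 3.22 with LPS+LA, a difference of 0.88.

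Il10, the main anti-inflammatory cytokine of myeloid cells, passed the background call with LPS alone (0.36) and at least 21.9-fold lower with LPS+LA. Il1rn, the interleukin-1 receptor antagonist, lay at 3.31 in medium, 6.18 with LPS, 2.79 with LA alone and 2.74 with LPS+LA (10.8-fold lower). Cd274, which encodes the inhibitory ligand PD-L1, was 7.14-fold lower, at 2.33 with LPS+LA against 5.16 with LPS and 3.19 in medium. These brakes on inflammation were lower, as the cytokines were. In all, 5 of the 20 genes of this regulatory list above background were lower, 3 higher and 12 neither. Among those higher were Tgfbr1 (1.58) and Tgfbr2 (1.62), the receptor chains of TGF-beta.

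Chemokines, which draw leukocytes to the cell that secretes them, gave 9 of 11 CXC genes lower (median -2.55) and 10 of 17 CC genes lower (median -1.38), with 0 higher in either list. Cxcl10, a ligand of Cxcr3 on T cells, showed the largest measured difference downwards of all genes. It lay at -1.34 in medium, 6.36 with LPS, -3.65 with LA alone and -1.59 with LPS+LA, a difference of -7.95 or 247-fold. Cxcl1 and Cxcl2, which attract neutrophils, were at least 132-fold (-4.10 with normexp) and 24.7-fold lower, and Cxcl3 39.0-fold. Cxcl9, the sister of Cxcl10, was at -1.18 with LPS, dim on the other 3 arrays and at least 7.55-fold lower. Among CC chemokines, Ccl4 lay at 1.79 in medium, 8.31 with LPS, 1.76 with LA alone and 2.06 with LPS+LA (76.6-fold lower), and its relative Ccl3 at 1.06, 5.53, 1.91 and 1.98 (11.7-fold lower). Ccl5, which attracts T cells, was 25.5-fold lower. For Ccl3, Ccl4 and Ccl5 the LPS+LA and medium levels were within 2-fold of each other, whereas Cxcl3 lay 3.08-fold below medium with LPS+LA. Ccl17 and Ccl22, ligands of Ccr4 made by mature dendritic cells, were 6.81-fold and 5.62-fold lower.

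Ccl2, the monocyte chemoattractant, had another pattern. It lay at -0.40 in medium, 3.63 with LPS, 2.48 with LA alone and 2.25 with LPS+LA. It was thus high on all 3 stimulated arrays, 7.38-fold above medium with LA alone and 6.31-fold above medium with LPS+LA. Its LPS+LA level was 2.59-fold below LPS, a difference of -1.38 that was under 2-fold after quantile normalization (-0.92) and in the authors' table (-0.95). Among the 97 genes at least 8-fold higher with LPS than in medium and measured on the 3 arrays, Ccl2 kept the largest part of that log2 difference with LPS+LA, 65.9%. Next came Tnfsf8, the CD30 ligand (44.4%), Pla1a, a phospholipase (38.3%), Lag3, an inhibitory receptor (36.2%), and Socs1, an inhibitor of cytokine signalling (33.9%). The smallest parts belonged to Sdc4, a syndecan of the cell surface (-70.8%), Phf11a (-60.5%), Tnfaip3 (-59.1%), Ifi205 (-57.6%) and Ifit3 (-56.5%), which with LPS+LA lay below medium. These percentages share the LPS and medium arrays with the choice of the genes and are a description.

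**Figure D2:**
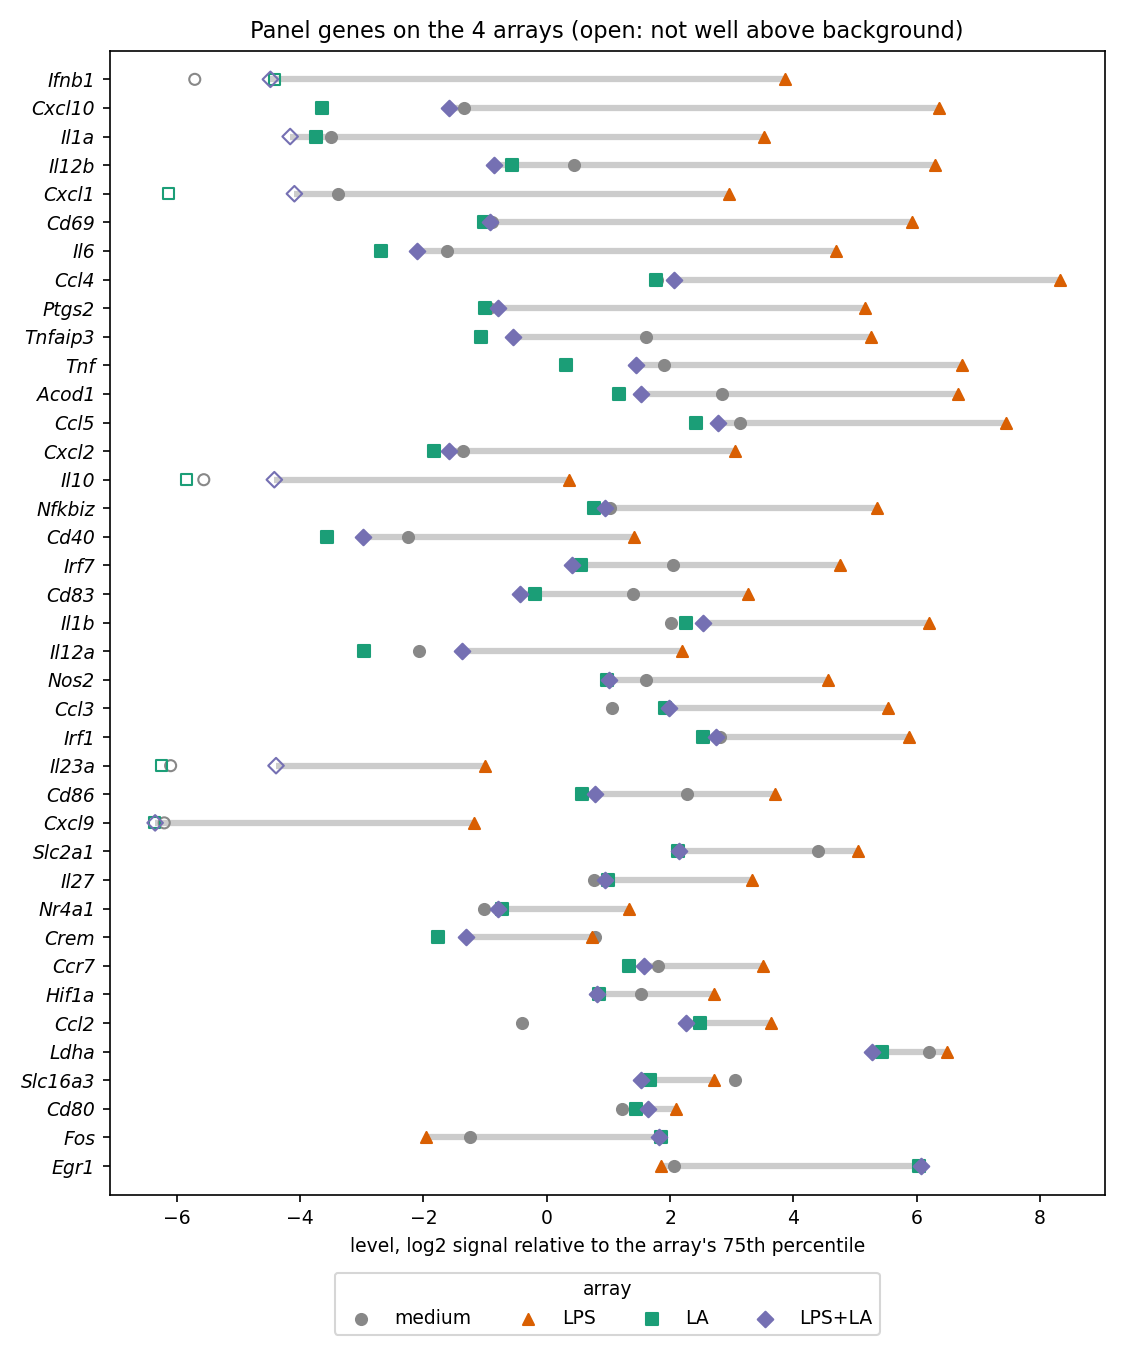
Levels of 39 panel genes on the 4 arrays, in log2 units relative to each array's 75th percentile, with 1 symbol per array, open where the probe was not well above background, and a grey line from LPS to LPS+LA. Of the 39 genes, 36 lie at least 2-fold lower with LPS+LA than with LPS, 2 (Egr1 and Fos) at least 2-fold higher, and Cd80 at neither.

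Interferon-stimulated genes held the 2 lists with the lowest medians. Ifnb1, interferon beta itself, was at 3.87 with LPS, not well above background on the other 3 arrays, and at least 250-fold lower with LPS+LA, the largest bound of all genes (a difference of -5.33 with normexp). The chains of its receptor differed by less, Ifnar1 by -0.27 (down to -1.44 at another probe) and Ifnar2 by -1.23 (-0.07 at another probe), and Ifngr1, a chain of the interferon gamma receptor, was higher by 1.98. Of 13 IFIT and OAS genes, which sense or block viral RNA, 11 were lower and 0 higher, with a median of -3.63. Of 18 guanylate-binding proteins and immunity-related GTPases, which attack intracellular microbes, 16 were lower (median -3.21), and of 57 other interferon-stimulated effectors, 53 were lower (median -2.80), again with 0 higher. Over the processing settings these 3 medians stayed at or below -2.16. With LPS against medium, where 9.58% of all genes were at least 2-fold higher, 11, 16 and 50 members of these lists were higher, a comparison that shares the LPS array.

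Ifit2 lay at 1.44 in medium, 6.45 with LPS, -1.26 with LA alone and -0.92 with LPS+LA, a 165-fold difference from LPS. Ifit3, at 1.66, 6.14, -0.19 and -0.86, was 128-fold lower, and Ifit1 and Oasl1 were 76.1-fold and 90.4-fold lower. Ifit3b was 99.6-fold lower, but it is a close copy of Ifit3 and their probes may share signal. Rsad2, which encodes the antiviral enzyme viperin, lay at 3.41 in medium, 8.30 with LPS, 0.46 with LA alone and 1.73 with LPS+LA (95.5-fold lower). All of these lay below medium on both LA arrays. Isg15, a ubiquitin-like protein, and Cmpk2, a mitochondrial nucleotide kinase, were 51.8-fold and 58.9-fold lower, and Tnfsf10, the death ligand TRAIL, at least 67.8-fold. Gbp5, a guanylate-binding protein, lay at -1.42 in medium, 4.69 with LPS, -1.08 with LA alone and -1.19 with LPS+LA (58.8-fold lower), and here the LA arrays were slightly above medium. Gbp2, Gbp3 and Irgm1 were 23.5-fold, 21.3-fold and 20.4-fold lower. Members of these GTPase families resemble each other in sequence, so values of single members are uncertain.

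The transcription factors of this system were lower by less. Irf7, which amplifies interferon production, lay at 2.04 in medium, 4.75 with LPS, 0.56 with LA alone and 0.42 with LPS+LA (20.1-fold lower). Irf1 was 8.73-fold and Stat2 8.39-fold lower, and Jak2, a kinase of cytokine receptors, 7.02-fold. Of 22 interferon regulatory factors, STAT proteins and partners, 13 were lower, 0 higher and 9 neither (median -1.32). Irf3 (0.31) and Stat6 (0.15), the first activated without new transcription by the TRIF branch and the second by IL-4, were within 2-fold, as was Irf4 (0.67).

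The 250 bases before the start of 3 genes that LPS is known to switch on are printed because these genes are among those with large differences and their windows hold motif matches. The windows of Ifit2, Il12b, Il1a, Tnf and Irf7 were searched too and held no match. They are from RefSeq (GRCm38.p6), 5′ to 3′ on the strand of the gene, with motif matches in capitals. Cxcl10 is at chr5:92348890-92349139 on the minus strand, Ifnb1 at chr4:88522795-88523044 on the minus strand, and Il6 at chr5:30012864-30013113 on the plus strand.
Cxcl10: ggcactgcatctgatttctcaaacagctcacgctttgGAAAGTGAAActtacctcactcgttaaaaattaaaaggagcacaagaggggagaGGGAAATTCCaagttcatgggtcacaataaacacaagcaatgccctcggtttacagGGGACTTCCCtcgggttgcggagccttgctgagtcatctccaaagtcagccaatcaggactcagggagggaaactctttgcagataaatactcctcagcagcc
Ifnb1: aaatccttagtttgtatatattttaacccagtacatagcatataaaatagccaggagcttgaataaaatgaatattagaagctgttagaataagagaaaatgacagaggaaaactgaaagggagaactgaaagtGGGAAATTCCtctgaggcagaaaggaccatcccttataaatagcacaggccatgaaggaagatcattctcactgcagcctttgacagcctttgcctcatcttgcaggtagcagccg
Il6: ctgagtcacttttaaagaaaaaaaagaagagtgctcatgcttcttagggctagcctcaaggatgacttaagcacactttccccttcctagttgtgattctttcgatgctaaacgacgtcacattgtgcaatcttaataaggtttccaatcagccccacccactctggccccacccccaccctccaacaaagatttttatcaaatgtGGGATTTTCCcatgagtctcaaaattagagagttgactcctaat
In Cxcl10 the capitals mark, from left to right, a match to the core of the interferon-stimulated response element, GAAANNGAAA, at -213 to -204, and matches to the kB consensus bound by NF-kB at -159 to -150 and -103 to -94. In Ifnb1 and Il6 they mark kB matches at -116 to -107 and -44 to -35. Positions count back from the transcription start, and both strands were searched. The response element core was found in 3.46% of 27018 genes with a promoter window of this length and in 3.36% of the 12719 tested genes with such a window. It was found in 9 of 12 IFIT and OAS genes and 8 of 9 guanylate-binding and immunity-related GTPase genes with a window. Of the other interferon-stimulated effectors with a window, 13 of 45 held it. These lists were composed of interferon-stimulated genes, so their shares are a property of the lists. Among genes at least 8-fold lower with LPS+LA the core was in 30 of 187. Among those at least 2-fold lower it was in 5.72% and among those at least 2-fold higher in 2.55%. The kB consensus was in 4.46% of all genes with a window and 5.32% of the tested ones. It was in 14.4% of the genes at least 8-fold lower, 8.10% of those at least 2-fold lower and 4.66% of those at least 2-fold higher. By list, it was in 5 of 18 inflammatory cytokine genes and in 5 of 18 immediate early genes with a window. The latter list was split in direction. The window of Fos, which was higher with LPS+LA, held a kB match at -214 to -205. A match is a description of these letters and shows neither binding nor a cause.

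Of 37 genes of NF-kB subunits, inhibitors and feedback, 25 lay at least 2-fold lower, 0 higher and 12 neither, with a median of -1.83. Tnfaip3, the ubiquitin-editing brake A20, lay at 1.61 in medium, 5.26 with LPS, -1.07 with LA alone and -0.55 with LPS+LA, 55.9-fold lower than LPS and below medium. Nfkbiz, an IkB-family cofactor of secondary response genes such as Il6, lay at 1.02, 5.35, 0.76 and 0.94 (21.4-fold lower, with a difference of -2.38 at its other measured probe). Malt1, a signalling scaffold and protease, was 27.5-fold lower, Tnip3, an A20-binding protein, 17.8-fold, and Ripk2, the kinase downstream of Nod receptors, 8.19-fold. The subunits of the kinase complex upstream, Ikbkb (0.05) and Ikbkg (0.63), were within 2-fold. A kB consensus stood in the promoter window of 12 of 29 list members (41.4%).

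Feedback genes that end cytokine and MAP kinase signals were mixed, with 10 of 28 lower, 4 higher and 14 neither (median -0.63). Dusp2, a phosphatase of ERK and p38, lay at -1.65 in medium, 3.86 with LPS, -2.36 with LA alone and -1.74 with LPS+LA (48.4-fold lower). Dusp10 was 16.7-fold lower, and Zc3h12c, of the Regnase family of RNA-decay enzymes, 20.2-fold. Dusp6, a phosphatase of ERK that is itself a target of ERK signalling, went the other way at 1.06, 0.55, 3.34 and 3.21 (6.34-fold higher). The suppressors Socs3 (-1.19, 3.85, 0.18 and 0.50) and Socs1 (-3.37, 1.38, -1.86 and -1.76) lay 10.2-fold and 8.80-fold below LPS, yet both LA arrays were at least 2.59-fold above medium for both genes.

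Costimulation and maturation genes, by which a dendritic cell engages T cells, gave 21 of 32 lower, 0 higher and 11 neither, with a median of -1.93. Cd69, a lectin that retains lymphocytes in tissue, lay at -0.89 in medium, 5.93 with LPS, -1.01 with LA alone and -0.92 with LPS+LA, a 115-fold difference, so that 3 arrays were alike and 1 was high. Cd40, the receptor of T-cell help, was at -2.25, 1.41, -3.57 and -2.97 (20.9-fold lower). Cd83 and Cd86 lay below medium on both LA arrays, at 1.40, 3.26, -0.19 and -0.44 for Cd83 (a difference of -3.70 from LPS) and 2.28, 3.70, 0.57 and 0.78 for Cd86 (7.58-fold). Their relative Cd80 did not pass 2-fold at its brightest probe, at 1.23, 2.10, 1.44 and 1.64, a difference of -0.47, while another of its 3 probes passed it. Icam1, the adhesion molecule of the immune synapse, was 14.1-fold lower, and Ccr7, which guides mature dendritic cells to lymph nodes, 3.82-fold, at 1.57 against 3.50 with LPS and 1.80 in medium.

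Antigen presentation differed between its classes. Of 23 MHC class I presentation genes, 18 were at least 2-fold lower and 0 higher, with a median of -1.43 (-1.54 to -0.93 over the settings). H2-T22, a nonclassical class I molecule, was 6.80-fold lower, Psmb9 and Psmb8, subunits of the immunoproteasome, lay at -2.14 and -1.87, and Nlrc5, the class I transactivator, at -2.20. Of 18 class II genes, 7 were lower, 0 higher and 11 neither, with a median of -0.52 beside -0.49 for housekeeping genes. H2-Aa, a class II chain, lay at 5.91 in medium, 6.21 with LPS, 4.75 with LA alone and 4.69 with LPS+LA, and Ciita, the class II transactivator, at 1.35, 1.39, 2.25 and 2.39, just short of 2-fold. The chain thus read lowest and its transactivator highest on the LA arrays. Several of these H2 genes are close relatives, and their probes may share signal.

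Enzymes of nitric oxide, arginine and itaconate metabolism gave 9 of 13 lower and 0 higher (median -1.59). Acod1, which makes the antimicrobial metabolite itaconate, lay at 2.84 in medium, 6.68 with LPS, 1.17 with LA alone and 1.54 with LPS+LA (35.3-fold lower). Nos2, the inducible nitric oxide synthase, was at 1.61, 4.57, 0.98 and 1.01 (11.8-fold lower), while the arginine transporter Slc7a2 was 27.1-fold lower and Gch1, which starts synthesis of its cofactor tetrahydrobiopterin, 13.2-fold. In the prostaglandin and leukotriene list, 6 of 23 genes were lower and 7 higher. Ptgs2, the inducible cyclooxygenase, lay at 5.15 with LPS, -0.80 with LPS+LA and -0.93 in medium (61.8-fold lower). The constitutive enzyme Ptgs1 was higher by 1.41, as were Alox5 (1.39) and Lta4h (1.32), which make leukotriene B4, its receptor Ltb4r1 (1.85) and the prostaglandin receptor Ptger3 (2.25).

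Receptors and sensors were on both sides. Of 30 genes of Toll-like receptor signalling, 6 were lower, 6 higher and 18 neither, with a median of -0.23 whose sign changed with the scaling. Tlr4, the LPS receptor itself, lay at 1.48 in medium, -0.63 with LPS, 1.45 with LA alone and 1.51 with LPS+LA, 2.14 higher than with LPS and level with medium. Its partner Cd14 was at 2.39, 4.27, 1.84 and 1.85 (5.35-fold lower), and Tlr2, which senses bacterial lipoproteins, lay at -1.40. Irak4, the first kinase after MyD88, was higher by 1.80. Of 21 C-type lectins and cytosolic sensors, 9 were lower and 4 higher, among them Ifih1, the RNA sensor MDA5 (23.8-fold lower), Clec4e, the lectin Mincle (23.5-fold lower), and Cgas, the DNA sensor (5.91-fold lower). In the inflammasome list, 7 of 23 were lower and 4 higher, with Casp4, the sensor of cytosolic LPS, 8.27-fold lower and Nlrp1b 4.79-fold higher.

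Of 16 chemokine and chemoattractant receptor genes, 5 were lower, 5 higher and 6 neither. Those higher with LPS+LA included Cxcr2, the receptor of Cxcl1 and Cxcl2, at -0.33 in medium, -2.31 with LPS and 0.85 with LA alone, and 10.6-fold higher with LPS+LA than with LPS. C5ar2, a receptor of complement C5a, was 8.85-fold higher at -0.55, -2.28, 0.88 and 0.86, and Ccr2, the receptor of Ccl2, 6.24-fold higher at 0.60, -1.37, 1.27 and 1.28. In each case LPS was the low array and the LA arrays lay above medium. Lower were Ccrl2, a chemerin receptor (21.7-fold), and the formyl peptide receptors Fpr2 (-2.06) and Fpr1 (-1.51).

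Genes of low oxygen and sugar use were first counted where above background on all 4 arrays. Of these, 14 of 31 HIF targets and 8 of 32 glycolysis genes were at least 2-fold lower with LA both with and without LPS. Over all genes above background on the 4 arrays it was 267 of 13367. Of 35 targets of hypoxia-inducible factors outside glycolysis, 21 were lower with LPS+LA than with LPS, 4 higher and 10 neither (median -1.30). With LA against medium, where 3.83% of all genes were at least 2-fold lower, 17 of these 35 were lower, and the comparisons share no array. Egln3, the oxygen-sensing hydroxylase PHD3, lay at 3.99 in medium, 3.53 with LPS, 0.66 with LA alone and 0.50 with LPS+LA (8.19-fold lower than LPS). Hilpda, a lipid droplet protein, was at 1.68, 2.52, -1.30 and -1.24 (13.6-fold), Ak4, an adenylate kinase, at 2.43, 2.71, -0.64 and -0.87 (a difference of -3.58), and Ddit4, an inhibitor of mTORC1, at 3.73, 3.95, 0.56 and 1.13 (7.05-fold). For these 4 genes the medium and LPS arrays were both high and the LA arrays both low. Adm, adrenomedullin, was at least 33.8-fold lower. Hif1a, the oxygen-regulated subunit, lay at 1.53, 2.71, 0.84 and 0.81 (3.72-fold lower), and Epas1, which encodes HIF-2 alpha, was higher by 1.59.

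Of 32 genes of glycolysis and glucose uptake, 14 were lower, 2 higher and 16 neither, with a median of -0.65 (-0.76 to -0.23 over the settings). Slc2a1, the glucose transporter GLUT1, lay at 4.39 in medium, 5.05 with LPS, 2.12 with LA alone and 2.14 with LPS+LA (7.54-fold lower). Pfkp, a phosphofructokinase, was 8.61-fold lower, Tpi1, triosephosphate isomerase, 5.47-fold, and Pfkfb3, which makes the activator of phosphofructokinase, 5.31-fold. Pdk2, an inhibitor of pyruvate dehydrogenase, was higher by 2.08. With LA against medium, 10 of the 32 were lower and 0 higher, where 3.89% of all genes were higher. Neither the tricarboxylic acid cycle and pentose phosphate list (1 of 32 lower, 4 higher) nor the respiratory chain (3 of 42 lower, 0 higher) held a comparable share of lower genes, and Idh1, the cytosolic isocitrate dehydrogenase, was 5.23-fold higher.

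Ldha, lactate dehydrogenase A, lay at 6.20 in medium, 6.50 with LPS, 5.44 with LA alone and 5.28 with LPS+LA, 2.33-fold lower than LPS. Slc16a3, the lactate exporter MCT4, was at 3.05, 2.71, 1.67 and 1.53 (2.26-fold lower). Both differences were under 2-fold after quantile normalization (-0.70 and -0.87) and in the authors' table (-0.80 and -0.75). Bsg, the chaperone of Slc16a3, lay at -1.81. In the list of lactate and proton handling, 12 of 37 genes were lower, 4 higher and 21 neither. Carbonic anhydrases, which interconvert carbon dioxide and bicarbonate, were among the lower ones, Car13 by 9.15-fold and Car4 by 6.69-fold. In the list of proton and metabolite sensing receptors, 8 of 26 were lower and 8 higher. Hcar2, the receptor of nicotinic acid and ketone bodies, was 4.31-fold lower, and Lpar6, a lysophosphatidic acid receptor, was 4.74-fold higher. The first of the 2 promoter windows of Ldha is printed because it holds several matches to the core of the hypoxia response element, ACGTG, marked in capitals, on GRCm38.p6 chr7:46845554-46845803, plus strand.
Ldha: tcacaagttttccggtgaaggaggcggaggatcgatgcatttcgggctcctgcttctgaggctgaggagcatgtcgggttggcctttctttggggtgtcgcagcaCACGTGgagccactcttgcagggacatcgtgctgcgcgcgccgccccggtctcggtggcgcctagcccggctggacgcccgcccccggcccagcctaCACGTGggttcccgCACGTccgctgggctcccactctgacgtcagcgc
Its other window held no match. In the window shown, matches began at -145, -144, -48, -47 and -34, and some overlap because the core and its reverse complement share bases. The core was in 18.5% of all 27018 genes with a window and in 22.5% of the 12719 tested ones. It was in 60.7% of 28 hypoxia list genes and 51.6% of 31 glycolysis genes with a window, but in 22.7% of genes at least 2-fold lower and 23.8% of those at least 2-fold higher. The hypoxia list was composed of known HIF targets, so its share is a property of the list.

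Stress genes showed the largest difference among heat shock proteins, where 10 of 27 were lower and 2 higher (median -0.85). Hspa1a and Hspa1b, the inducible HSP70 genes, lay at 4.50, 5.52, 2.33 and 0.18 and at 2.98, 3.80, -0.41 and -1.96 on medium, LPS, LA and LPS+LA. They were 40.3-fold and 54.0-fold lower than with LPS, but the genes are near-identical copies and their probes may share signal. They also read lower with LPS+LA than with LA alone. Mt2, a metallothionein that binds zinc, lay at 5.96, 7.05, 3.16 and 3.35. Among genes of the integrated stress response, 10 of 33 were lower and 0 higher, led by Nupr1, a stress-induced chromatin protein (37.6-fold), and Atf3, a repressor of inflammatory genes (8.28-fold). Hspa5, the main chaperone of the endoplasmic reticulum, lay at 4.79, 6.60, 3.63 and 3.67 (7.63-fold lower). Of 23 genes of the unfolded protein response, Hspa5 among them, 5 were lower, 0 higher and 18 neither. Over all genes, 13% were lower and 12% higher. The NRF2 list gave 9 of 38 lower and 2 higher, among them Sod2, the mitochondrial superoxide dismutase (-3.80), and Hmox1, heme oxygenase 1 (-1.94). Hamp, the iron hormone hepcidin, was at 1.24 with LPS, dim elsewhere and at least 40.4-fold lower. Slc40a1, the iron exporter ferroportin, was 5.24-fold higher.

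Immediate early genes were split, with 7 of 25 lower, 9 higher and 9 neither. Egr1, a zinc finger factor that follows ERK and serum response factor activity, showed the largest measured difference upwards among genes with an ordinary symbol, after the predicted gene Gm46170 (4.62). It lay at 2.06 in medium, 1.85 with LPS, 6.04 with LA alone and 6.06 with LPS+LA, 18.6-fold above LPS. Fos, a subunit of AP-1, was at -1.24, -1.96, 1.86 and 1.82 (13.7-fold higher), and Ier2 at -0.07, -0.53, 1.58 and 1.61 (higher by 2.14). For these 3 genes both LA arrays were high and the LPS and medium arrays low. Egr2 lay at 4.00, 2.39, 4.92 and 4.70 (4.96-fold higher), with LPS as the lowest array. On the other side stood the nuclear receptor Nr4a1 (-1.02, 1.34, -0.73 and -0.80, 4.39-fold lower), Maff (5.98-fold lower) and Csrnp1 (13.7-fold lower). Genes that respond to cyclic AMP, with 12 of 45 lower and 12 higher, had no common direction. Crem, a cyclic AMP-responsive repressor, lay at 0.78, 0.73, -1.77 and -1.31 (4.11-fold lower), while Sik1, a kinase induced by cyclic AMP, was 5.69-fold higher.

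**Figure D3:**
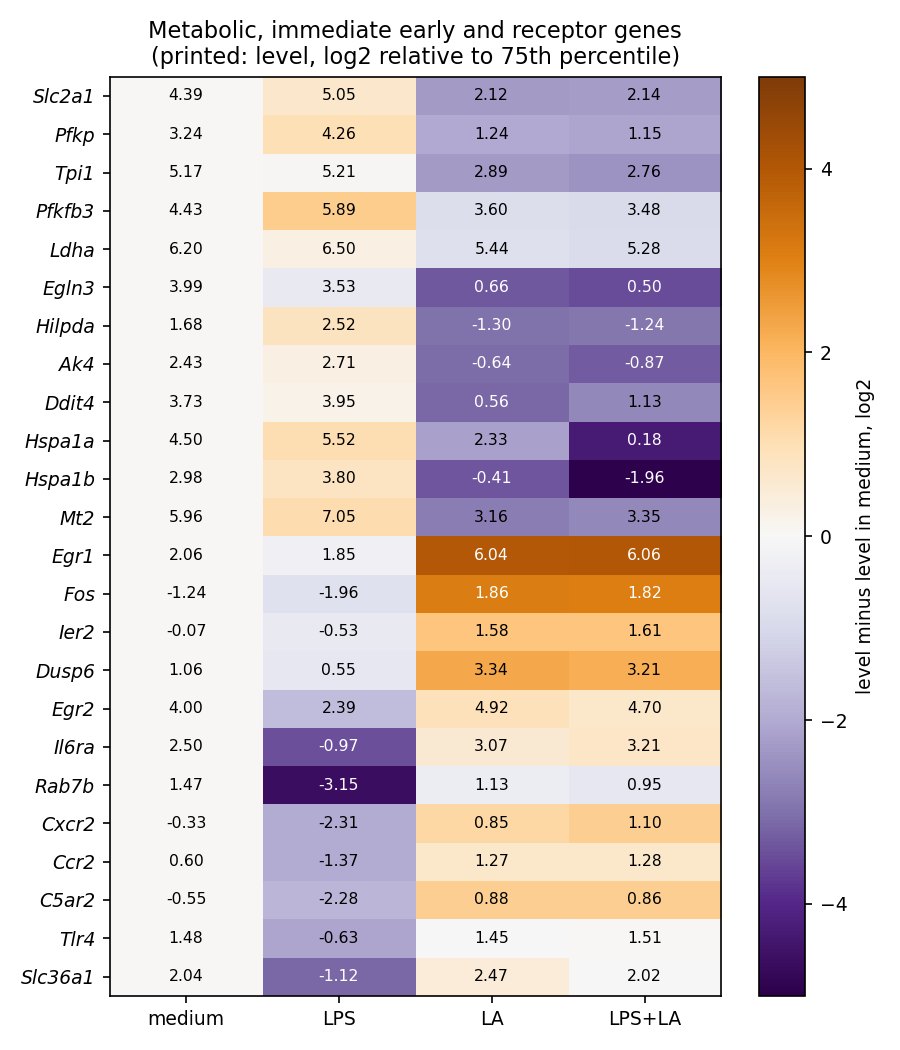
Levels of 24 genes chosen after their values were seen, on the 4 arrays (columns), printed in log2 units relative to the 75th percentile and coloured by the difference from medium. Slc2a1 to Mt2 are lower on both LA arrays than with LPS, Egr1 to Dusp6 are high on both LA arrays, and Il6ra to Slc36a1 are lowest with LPS.

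Many of the largest differences upwards belonged to genes whose lowest array was LPS. Il6ra, the interleukin-6 receptor, lay at 2.50 in medium, -0.97 with LPS, 3.07 with LA alone and 3.21 with LPS+LA (18.1-fold higher). Rab7b, a GTPase of late endosomes linked to Tlr4 traffic, was at 1.47, -3.15, 1.13 and 0.95 (17.2-fold higher, a difference of 4.10 that was 2.39 with normexp and 2.49 as the mean of all probes). The next were Lpar5, a lysophosphatidic acid receptor (13.5-fold), Tmem150b (12.7-fold), Ppcs, which acts in coenzyme A synthesis (12.2-fold), and Arl11, a small GTPase (a difference of 3.46). Rpph1, the RNA of ribonuclease P, and E2f2, a cell cycle factor, were both 10.2-fold higher and also lay above medium on both LA arrays. Ercc8, a DNA repair protein, lay at -2.16, -2.99, -1.48 and 0.60, so that only LPS+LA was high, and Kank4 was well above background with LPS+LA alone (at least 18.5-fold higher). Other large bounds upwards, those of Gna12, a G protein alpha subunit (at least 15.3-fold), Tmem86a (14.5-fold), Sppl2b (12.7-fold), Tmem273 (12.4-fold) and Arhgef16 (10.9-fold), belonged to genes that were dim on the LPS array and bright on the other 3.

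Other than cell type markers, few lists held more higher than lower genes. The counts below stand beside 13% lower and 12% higher over all genes. Amino acid transporters gave 8 of 20 higher and 5 lower (median 0.40), with Slc36a1, the lysosomal proton-coupled transporter, at 2.04, -1.12, 2.47 and 2.02 (8.80-fold higher) and Slc38a2, the glutamine transporter SNAT2, 7.22-fold higher. LXR and PPAR lipid genes gave 7 of 31 higher and 3 lower (median 0.34), with their partner receptor Rxra 5.03-fold higher. In sterol and fatty acid synthesis, 7 of 35 were higher and 7 lower, among them Fasn, fatty acid synthase (higher by 2.14) and Idi1 of the isoprenoid pathway (4.88-fold lower). The lysosome list gave 5 of 46 higher and 4 lower, a share below that of all genes. In matrix proteases and adhesion, 12 of 32 were lower and 1, Mmp9, higher (6.59-fold). Cell cycle genes gave 7 of 40 higher and 4 lower, with Ccnd2, cyclin D2, 14.1-fold lower. Chromatin enzymes gave 7 of 36 lower and 8 higher, Kruppel-like factors 4 of 12 each way, iron and zinc genes 9 of 26 lower and 6 higher, and cell death and survival genes 12 of 31 lower and 4 higher. Gadd45b, a stress sensor (10.0-fold lower), and Bcl2a1d, a survival protein with near-identical copies (7.26-fold lower), were among the last.

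**Figure D4:**
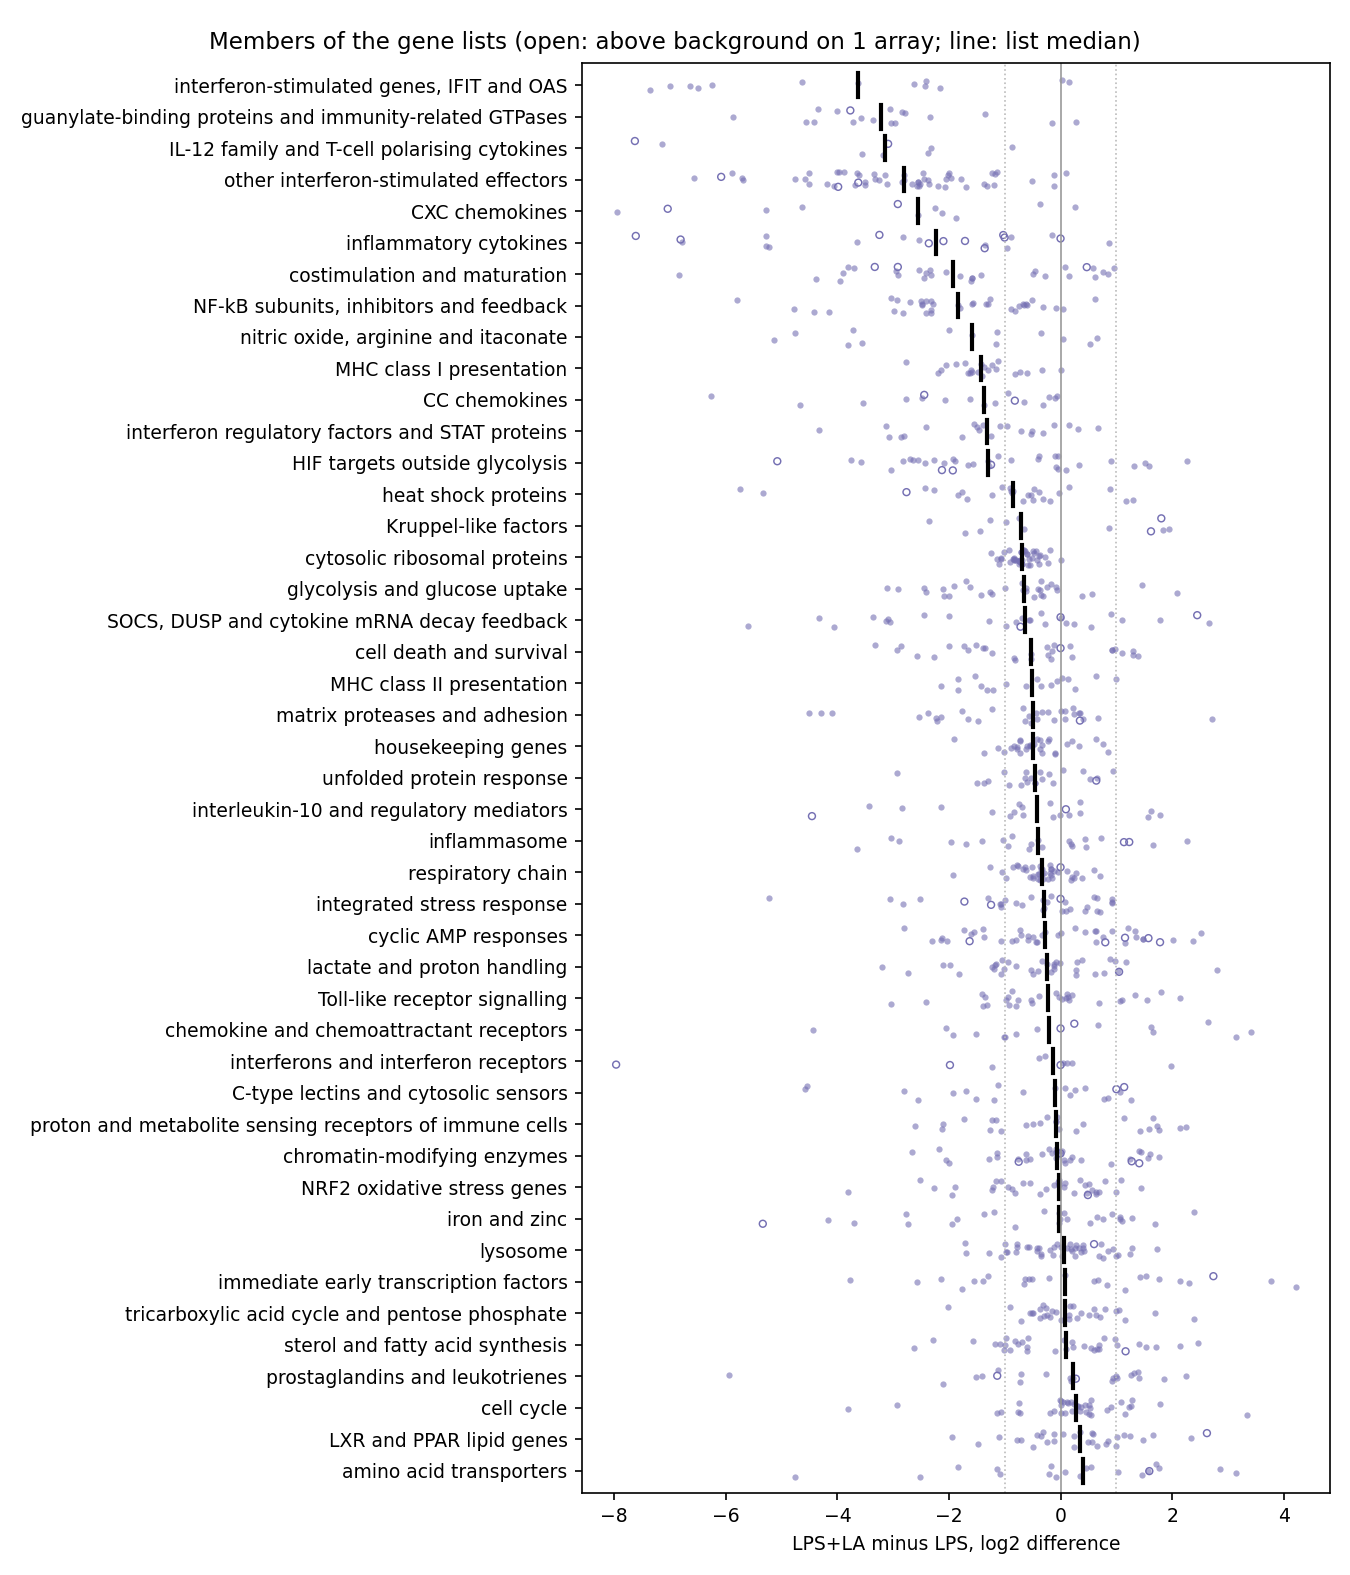
Difference between LPS+LA and LPS in log2 units (horizontal axis) for the members of 45 gene lists, with 1 point per gene, open where the gene was above background on 1 array only, a black line at the list median, a grey line at the median of all genes (0.01) and dotted lines at 2-fold. The interferon-stimulated lists, that of the IL-12 family and T-cell polarising cytokines, and the CXC chemokine list lie furthest to the left (medians -3.63 to -2.55). The amino acid transporters lie furthest to the right (0.40).

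Against medium, the LPS+LA culture lay close to medium for most genes that differed with LPS, in both directions. Of all genes measured on both arrays of a pair, 8.25% were higher by 2-fold or more with LPS than in medium and 7.34% lower, and 3.05% higher and 3.94% lower with LPS+LA than in medium. Of 1075 genes at least 2-fold higher with LPS than in medium and measured on the medium, LPS and LPS+LA arrays, 878 (81.7%) were at least 2-fold lower with LPS+LA than with LPS and 2 were higher. With LPS+LA, 908 of the 1075 (84.5%) lay within 2-fold of medium, 57 above and 110 below. The median part of the log2 LPS difference that remained was -8.67%, with quartiles of -33.6% and 16.7%. All 97 genes at least 8-fold higher with LPS were at least 2-fold lower with LPS+LA, and 64 lay within 2-fold of medium, 6 above and 27 below. Of 990 genes at least 2-fold lower with LPS than in medium, 705 (71.2%) were at least 2-fold higher with LPS+LA than with LPS, and 866 (87.5%) lay within 2-fold of medium. Of the 11373 genes that LPS left within 2-fold of medium, 6.84% were lower and 7.44% higher with LPS+LA than with LPS. These shares reuse the LPS array, so a high or low reading on it moves both differences in opposite directions.

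More genes differed with LA in the presence of LPS than in its absence. LA alone was compared with medium on arrays that the LPS+LA and LPS comparison does not use. Among the 13367 genes above background on all 4 arrays, LA alone was at least 2-fold lower than medium for 433 genes (3.24%) and higher for 327 (2.45%), whereas LPS+LA was lower than LPS for 1632 (12.2%) and higher for 1551 (11.6%). Of the 433, 267 (61.7%) were also lower with LPS+LA than with LPS, which was 16.4% of the 1632, and of the 327, 130 (39.8%) were also higher, which was 8.38% of the 1551. Across these genes, which are not independent replicates, the differences had a Pearson r of 0.50 and a Spearman rho of 0.48. The LA difference with LPS was at least 2-fold below the LA difference without LPS for 1305 genes and at least 2-fold above it for 1195. The largest gaps downwards belonged to Cd69 (-6.72), Ccl4 (-6.24), Gbp5 (-6.22), Il12b (-6.14), Ptgs2 (-5.89) and Il6 (-5.73), and those upwards to Rab7b (4.44), Il6ra (3.60), Epm2a (3.50), Daglb (3.41), Fbxl4 (3.40) and H6pd (3.29). For Epm2a, the glycogen phosphatase laforin, and Fbxl4, a mitochondrial F-box protein, LA alone differed from medium by -3.03 and -2.92, while LPS+LA was within 2-fold of LPS. The gap was near 0 for Egr1 (0.24) and Slc16a3 (0.20), whose LA differences were of like size with and without LPS.

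**Figure D5:**
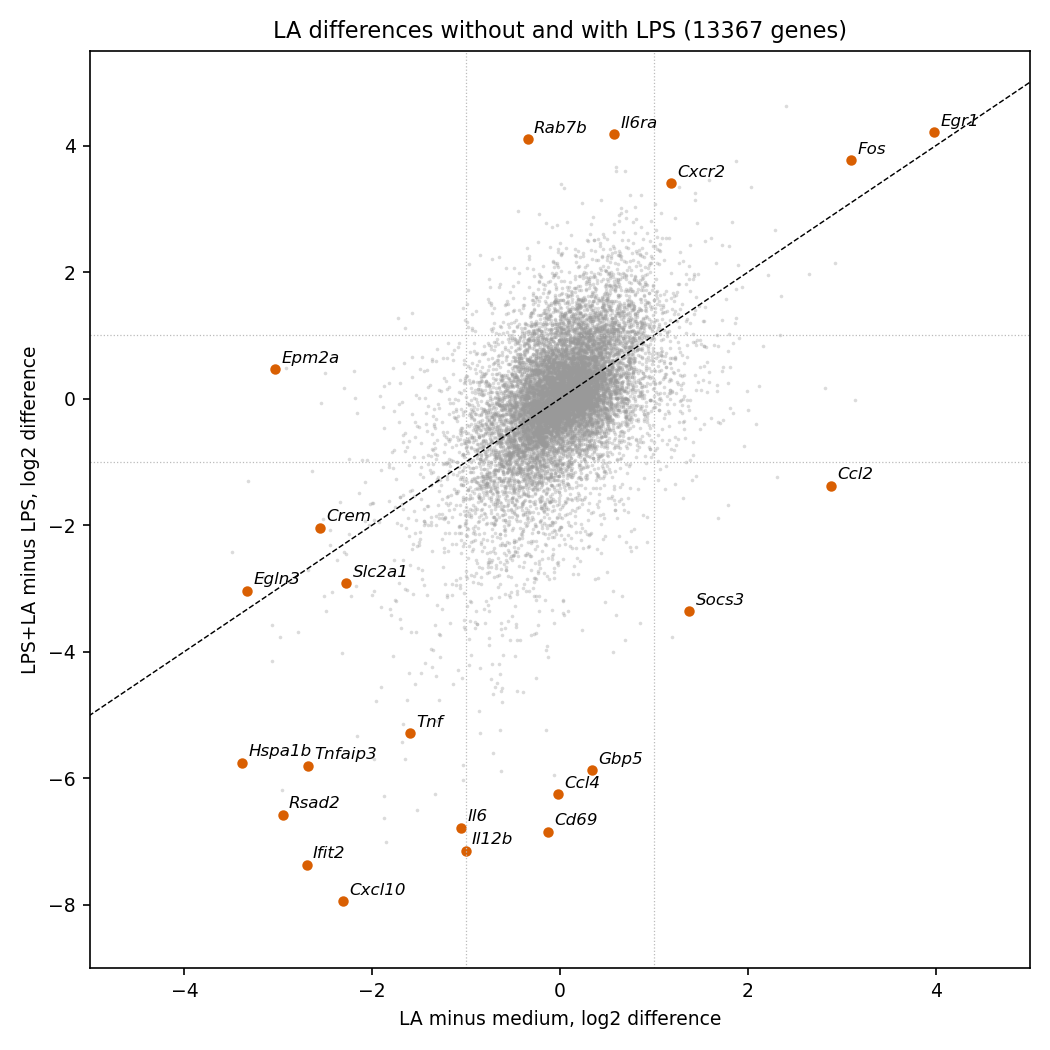
LA minus medium (horizontal axis) against LPS+LA minus LPS (vertical axis), both in log2 units, for the 13367 genes above background on all 4 arrays, with 1 point per gene, named examples in orange, dotted lines at 2-fold and a dashed line where both differences are equal. Cd69, Ccl4 and Gbp5 lie far below 0 on the vertical axis and near 0 on the horizontal axis, while Egr1 and Fos lie near the dashed line.

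Markers of other cell types were measured beside these results. Of 19 dendritic cell markers, 17 were above background on the LPS or the LPS+LA array, among them Flt3, Zbtb46 and Itgax, which encodes CD11c, while Xcr1 and Itgae were not. Macrophage and neutrophil markers were present too (21 of 23 and 23 of 23). The summed linear signal of the marker lists, in units of the 75th percentile, went from 246 with LPS to 155 with LPS+LA for dendritic cells (227 in medium, 164 with LA) and from 724 to 665 for macrophages and monocytes. Of the 17 dendritic cell markers, 6 were lower, 3 higher and 8 neither, with a median of 0.03. The bright class II genes H2-Ab1 (6.76 to 5.45) and H2-Aa (6.21 to 4.69) were lower, while Sirpa (1.02), Cd209a (1.07) and Clec9a (1.14, a bound) were higher. Some settings put these below 2-fold, with Sirpa down to 0.91, Cd209a to 0.61 and Clec9a to 0.41. On the lower side, H2-Aa came to -0.99 at its smallest. Dendritic cell markers below LPS outside class II included Ccr7 (-1.93) and Zbtb46, which ran from -1.58 to -0.72 over the settings. For neutrophils and myeloid precursors the sum went from 1092 to 1293 (946 in medium and 1232 with LA). In that list 11 of 23 genes were at least 2-fold higher with LPS+LA than with LPS and 0 lower, with a median of 0.90 (0.79 to 1.32 over the settings). The members furthest apart were Cxcr2, Mmp9, Elane, the neutrophil elastase (1.89), Ms4a3 (1.62) and Retnlg (1.45), while Ly6g (-0.03), Lcn2 (-0.30) and Csf3r (-0.27) were within 2-fold. Of the macrophage markers, Marco, a scavenger receptor, was 18.6-fold lower. The part of these markers in the Cxcr2, Mmp9 and Ccr2 differences was not tested. Lymphocyte and natural killer, erythroid, and stromal markers summed to 12.4, 20.1 and 81.2 with LPS+LA against 15.7, 40.6 and 113 with LPS, and those of mast cells, basophils and eosinophils to 134 against 116. The medians of the first 3 lists were 0.10, -0.31 and 0.01, and single bright members lay behind their sums, Pf4 (4.16 with LPS to 1.61 with LPS+LA) among the erythroid and megakaryocytic markers and Acta2 (6.69 to 6.15) among the stromal ones.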

How the data were processed

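RNA of the 4 groups was hybridised to single-colour Agilent arrays, 1 array a group, on 1 slide. The deposited intensity of each spot came, per the file headers, from Feature Extraction 12.0.3.1 as a linear processed signal with background subtracted and no scaling across arrays, whereas version 11.5.1.1 is named in the submitters' processing notes. A further table of intensities, also from the authors, equals this signal times 1 factor per array and served as an alternative. The headers name the mm9 build, and no array coordinate was used.

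Control spots and spots marked as outliers were left out, spots of a probe were averaged, and log2 levels were taken relative to the 75th percentile of each array. Of 56605 probes, 33767 matched 1 RefSeq symbol by transcript identifier, 0 several and 22838 none. A gene was read from its brightest probe. Where a gene passed the background call on 1 of 2 arrays, its bound on the dim array was its own dim value or the lowest signal of any passing spot there, whichever was higher, and 655 genes without a bound counted as neither. The labels do not say that cultures were separate, and no test was possible.

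The gene lists, the named genes and the alternatives were chosen with earlier results of these data known. Named were 39 panel genes, the 12 largest measured differences and 6 largest bounds each way (ordinary symbols only), up to 5 members of a list on the side of its median and up to 3 on the other, the 6 largest differences of differences each way and 5 genes at each end of the part of the LPS difference that remained. Some genes that the rule names are not reported here. Genes named outside this rule were Gm46170, the genes compared between LPS+LA and LA, several marker genes and members cited as within 2-fold, chosen after their values were seen. The script was checked on simulated data. R 4.3.3 with limma 3.58.1 gave normexp (offset 50) and quantile normalization, and the rest was computed in Python 3.11.15 (pandas 2.3.3, numpy 2.4.6, scipy 1.17.1). Normexp used the median spot signal, since the mean signal it was planned on is not in the array files used here. The 9 alternatives were normexp, the authors' table, scaling by the median, by quantiles or by a 75th percentile of probes bright on all arrays, only genes bright on all arrays, dim probes unfiltered, the mean of a gene's probes, and outlier spots kept.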

Additional observations from a re-analysis of the deposited data

Results flagged for a closer look

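For 6 of the genes picked by the naming rules and above background on all 4 arrays, the LA difference ran one way with LPS and the opposite way without it, each by at least 2-fold on 1 array a group, and the difference was not tested. Ccl2, the monocyte chemoattractant, was at -1.38 for LPS+LA minus LPS and at 2.88 for LA minus medium. The transcription factor Csrnp1 was at -3.78 and 1.20 in the same order. The cytokine signalling suppressors Socs1 (-3.14 and 1.51) and Socs3 (-3.35 and 1.38) and the CD30 ligand Tnfsf8 (-1.68 and 1.79) had the same signs. The zinc transporter Slc39a10 had the reverse, at 1.28 with LPS and -1.72 without. Over all 13367 genes above background on the 4 arrays, 15 were higher with LA than in medium and lower with LPS+LA than with LPS, and 5 the reverse.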

How the results depend on the processing

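With normexp, 1175 genes were at least 2-fold lower and 685 higher with LPS+LA than with LPS, and 63.2% of the genes 2-fold apart were lower. With the authors' table these values were 932, 3027 and 23.5%, and its scaling set the median of all genes at 0.43. With the 75th percentile of probes bright on all arrays, 39.6% were lower, and without a filter on dim probes 2973 genes were higher. The other counts under the alternatives lay within 1.5 times those reported, from 1633 to 2751 lower and from 1552 to 2761 higher. The LA difference with LPS was at least 2-fold below that without LPS for 720 genes and at least 2-fold above it for 412 with normexp. The share of LPS-higher genes that were lower with LPS+LA was 80.5% to 89.8% under the 4 alternatives run for it. Among named genes, 2711 values under an alternative moved by less than the median SD between probes of a gene (0.31), and 791 moved by more. Of the 399 genes, 16 changed sign under some setting, 2 of them at least 2-fold as reported. Acsl3 went to -0.053 as the mean of its 2 measured probes, which read 1.71 and -1.82. Ido2 went to -0.10 with normexp, and the cause was not tested. Of 52 list medians, 25 stayed below 0, 6 above, and 21 changed sign. Dim spots had an SD of 0.380 to 0.487 between prints, so genes near background are less precise. No paired analysis was possible because each group had 1 array and the shared number 1 pairs nothing.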
